A study of Mus musculus with 2 samples.

Results

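Early lymphoid and pre-B receptor genes are 10 genes that act while a blood progenitor begins to assemble antigen receptors: Rag1, Rag2 and Dntt of V(D)J recombination, Igll1 and Vpreb1 of the surrogate light chain, the receptor signal chains Cd79a and Cd79b, the adaptor Blnk, the cytokine receptor Il7r and the surface marker Ly6d. They were taken by name from 17216 genes by matching Entrez identifiers to mouse symbols, and all 10 were listed in both libraries. The members were chosen by name with the FPKM values of both libraries and the differences between them known, so their levels and differences are a description. The 2 libraries were made from flow-sorted long-term stem cells of the blood, the rare marrow cells that renew it for life, 1 from mice with the genotype Ccp3-/- and 1 from their wild type littermates, all of the strain C57BL/6. The gate kept lineage-negative cells with Sca-1, c-Kit and CD150 on their surface and without CD48. The sources used here give no age, sex, number of pooled animals or deleted part of the gene. With 1 library per genotype there was nothing to test genotypes against, no difference is checked by a replicate, and each comparison is of these 2 libraries.

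V(D)J recombination cuts and rejoins antigen receptor gene segments. RAG1 and RAG2 together make the cuts, and the polymerase TdT, encoded by Dntt, adds untemplated bases at the joints. A newly made immunoglobulin heavy chain is tested at the cell surface with a surrogate light chain, built from the products of Vpreb1 and Igll1, and with the signal chains Ig-alpha and Ig-beta; the whole is the pre-B receptor. In mouse marrow these genes mark the path from lymphoid-primed progenitors to B cell precursors, and long-term stem cells are known for little or no use of them.

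The 250 bases before the annotated start are shown for 3 members. Of these, the surrogate light chain genes Igll1 and Vpreb1 were chosen for the lowest single-gene FPKM ratios between the libraries. All 3 windows, like those of Blnk and Cd79a, also hold the E-box CAGGTG, a motif that E proteins of early lymphoid cells bind. The sequences are from RefSeq on GRCm38.p6, whereas the deposited values name mm9. They run 5′ to 3′ on the gene's strand, with capitals for CAGGTG or its reverse complement CACCTG. Igll1 is taken from chr16:16863986-16864235, Vpreb1 from chr16:16869256-16869505 and Rag1 from chr2:101649533-101649782, all on the minus strand.
Igll1: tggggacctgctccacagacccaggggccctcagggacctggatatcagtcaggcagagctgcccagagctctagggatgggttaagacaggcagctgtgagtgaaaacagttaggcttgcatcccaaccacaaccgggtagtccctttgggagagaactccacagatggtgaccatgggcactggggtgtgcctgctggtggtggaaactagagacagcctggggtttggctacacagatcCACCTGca
Vpreb1: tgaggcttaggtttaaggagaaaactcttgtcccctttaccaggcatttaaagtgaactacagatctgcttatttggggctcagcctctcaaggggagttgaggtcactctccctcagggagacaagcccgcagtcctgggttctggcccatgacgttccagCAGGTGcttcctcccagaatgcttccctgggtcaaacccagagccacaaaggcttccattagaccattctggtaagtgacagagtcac
Rag1: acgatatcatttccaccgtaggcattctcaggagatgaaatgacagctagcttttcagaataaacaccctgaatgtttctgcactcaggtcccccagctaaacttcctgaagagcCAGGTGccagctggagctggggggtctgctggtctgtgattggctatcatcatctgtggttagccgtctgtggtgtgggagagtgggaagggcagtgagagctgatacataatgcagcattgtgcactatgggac

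Such windows were found for 8 of the 10 members, all but Ly6d and Cd79b. CAGGTG stood on either strand in 5 of the 8, and in 17.2% of all 32851 RefSeq windows of this length. In Igll1 it lay with its outer edge 8 bases before the start, in Vpreb1 88 bases and in Rag1 135 bases before it. Of the other motifs searched on both strands, the EBF core CCCNNGGG was in 1 of 8 (Igll1; 11.8% of all windows), the Ikaros core TGGGAA in 1 (Rag1; 21.6%), the PU.1 core GAGGAA in 3 (Rag2, Vpreb1 and Cd79a; 23.3%), the STAT core TTCNNNGAA in 1 (Il7r; 7.02%) and TATAAA in 0 of 8 (12.4%). These are letters in a window, and no binding was measured here.

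Agbl3, which encodes CCP3, an enzyme that trims glutamates from proteins, had 1.11 FPKM with the wild type label and 0.66 FPKM with the Ccp3-/- label, from an estimated 23 and 15 reads, a ratio of 0.595 (95% counting interval 0.290 to 1.19). Its transcript did not check the genotype label, since the deleted part is not known, and the libraries are called WT and knockout-labelled (KO-labelled) from here on. FPKM corrects fragment numbers for a transcript's length and a library's depth, so levels can be roughly set against each other between genes. A drift with transcript length remained between these libraries, as given below, and proportions between genes of unlike length carry it. Low values implied about 15.4 and 14.2 M reads, and reads estimated from them gave between 88 and 10705 reads per member in the WT and between 26 and 4332 in the KO-labelled library. All intervals rest on these estimates and cover counting error only. Of the gate's own genes, Kit (59.7 and 56.5 FPKM, WT then KO-labelled) and Ly6a, which encodes Sca-1 (49.1 and 28.4 FPKM), were well above Slamf1, which encodes CD150 (2.14 and 3.40 FPKM). Cd48, whose protein the gate excluded, stood at 136 and 114 FPKM, which goes against the label of these cells as long-term stem cells, although RNA does not give surface protein. Dntt (341 and 149 FPKM) and Flt3 (155 and 82.5 FPKM), genes of lymphoid-primed progenitors, also stood above Kit. Which cells carried these transcripts was not tested, so the levels below are not taken as those of stem cells.

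Every member had a lower level in the KO-labelled library, with ratios of FPKM from 0.296 for Igll1 to 0.510 for Cd79b. Dntt dominated the set in both libraries, with 69.5% of the summed FPKM of the 10 genes in the WT and 69.0% in the KO-labelled library. The sum itself was 490 FPKM in the WT and 216 FPKM in the KO-labelled library, and without Dntt it was 150 and 67.0 FPKM. Fewer cells that carry these transcripts and less RNA per cell cannot be told apart in such libraries.

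**Figure D1:**
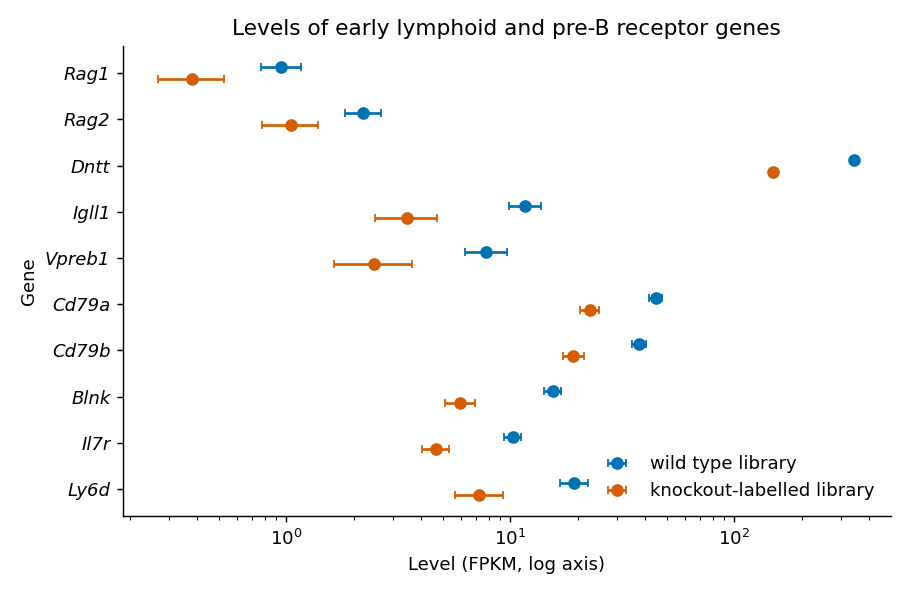
Level of each member in FPKM (log axis) in the WT library (blue) and the KO-labelled library (orange), with bars for exact Poisson 95% intervals of counting error, 1 library per genotype. Dntt stands above all others at 341 and 149 FPKM and Rag1 lowest at 0.95 and 0.38 FPKM, and for each gene the orange point lies left of the blue one.

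The order of levels was nearly the same in the 2 libraries. In the WT library it ran Dntt, Cd79a, Cd79b, Ly6d, Blnk, Igll1, Il7r, Vpreb1, Rag2 and Rag1, and in the KO-labelled library Il7r stood above Igll1. Counting intervals of neighbours overlapped for Ly6d and Blnk, for Igll1 and Il7r and for Il7r and Vpreb1 in the WT library. In the KO-labelled library they overlapped for Cd79a and Cd79b and for each neighbouring pair from Ly6d down to Vpreb1, so those positions are not separated. Dntt was above 98.9% of all listed genes in the WT and 97.3% in the KO-labelled library, while Rag1 was above 26.9% and 18.9%.

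Among the recombination genes, Dntt (Entrez gene 21673) stood at 341 FPKM in the WT library (interval 335 to 347) against 149 FPKM in the KO-labelled library (145 to 154). Its ratio was 0.438 (0.422 to 0.454), with the narrowest interval of the 10, from 10705 and 4332 reads. The transcript of this polymerase was far above those of the nuclease that cuts before it acts. Rag2 (19374), the partner subunit of the nuclease, had 2.20 and 1.05 FPKM, a ratio of 0.477 (0.334 to 0.668). Rag1 (19373), the catalytic subunit, had 0.95 and 0.38 FPKM from 97 and 36 reads, a ratio of 0.400 (0.267 to 0.595). Within each library Dntt was 359 and 393 times Rag1, and Rag2 was 2.32 and 2.76 times Rag1, and the intervals of the 3 ratios between libraries overlapped.

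The surrogate light chain genes had the lowest single-gene FPKM ratios of the set, though the interval of Vpreb1 overlapped those of all other members. Igll1 (16136), which encodes lambda5, stood at 11.7 FPKM in the WT (9.88 to 13.7) and 3.46 FPKM in the KO-labelled library (2.49 to 4.70), a ratio of 0.296 (0.205 to 0.422). Vpreb1 (22362), which encodes the variable-like part of the surrogate light chain, had 7.79 and 2.45 FPKM from 88 and 26 reads, a ratio of 0.315 (0.197 to 0.498). The 2 genes kept nearly the same proportion, with Vpreb1 at 0.667 times Igll1 in the WT and 0.708 times in the KO-labelled library. Vpreb2, a close copy of Vpreb1 between which reads could be split, had 1.22 and 1.51 FPKM from about 7 and 8 reads. Over both copies together the estimated reads were 95 and 34, a depth-adjusted ratio of 0.388 (0.254 to 0.580). The FPKM ratios of Ly6d and Blnk were 0.378 and 0.387. The single value of Vpreb1, and its place among the lowest ratios, is thus uncertain to that extent.

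The signal chains had the highest ratios of the set, with intervals apart from that of Igll1. Cd79a (12518), which encodes Ig-alpha, was at 44.5 FPKM in the WT (41.6 to 47.5) and 22.6 FPKM in the KO-labelled library (20.5 to 24.9), a ratio of 0.509 (0.452 to 0.573). Cd79b (15985), its partner Ig-beta, was at 37.5 and 19.1 FPKM, a ratio of 0.510 (0.446 to 0.582). Their proportion was 1.19 in the WT and 1.18 in the KO-labelled library; their proteins form a heterodimer. Cd79a was 3.81 times Igll1 in the WT and 6.54 times in the KO-labelled library, so their FPKM values were not in the same proportion. For Cd79a over Vpreb1 the values were 5.71 and 9.24, with overlapping intervals of the 2 genes' ratios. Cd79a and Igll1 differ in transcript length, at 1327 and 870 bases. On the log2(FPKM + 1) scale used below their differences were −0.94 and −1.51, and −0.79 and −1.23 after length centring. The part of length in their changed proportion was not tested. Blnk (17060), the adaptor that carries the receptor's signal from the kinase SYK to PLCG2, had 15.5 FPKM in the WT and 5.98 FPKM in the KO-labelled library, a ratio of 0.387 (0.323 to 0.460).

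Il7r (16197), the alpha chain of the receptor for interleukin 7, on which mouse B cell precursors depend, stood at 10.2 FPKM in the WT (9.36 to 11.2) and 4.66 FPKM in the KO-labelled library (4.04 to 5.32), a ratio of 0.456 (0.385 to 0.535). Its proportion to Il2rg, which encodes the common gamma chain it pairs with, was 0.133 and 0.0854. Ly6d (17068), a surface protein that separates B-biased from other common lymphoid progenitors, had 19.3 and 7.28 FPKM from 194 and 68 reads, a ratio of 0.378 (0.282 to 0.500).

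Differences were also taken on the log2(FPKM + 1) scale, KO-labelled minus WT, which understates the change of low genes, and were counted over genes whose mean reached 1 FPKM. On that scale 9 of the 10 members passed the filter, each with at least 1 FPKM in both libraries, and 9 of 9 were at least 1.5-fold lower, beside 6.13% of all 11985 genes tested. Their median difference was −1.19, beside 0.01 over all genes tested, and members ranged from −1.51 (Igll1) to −0.64 (Rag2). Rag1 did not pass, with a mean of 0.665 FPKM and a difference of −0.50. At 2-fold the count was 5 of 9, beside 1.55% of all genes. When both libraries were brought to the same FPKM sum, the share of all genes at least 1.5-fold lower was 3.2% and of those higher 12.2%, beside 6.13% and 6.11%, and with the same upper quartile it was 7.46% and 4.81%. The median of all genes was then 0.18 and −0.04, and that of the members −0.997 and −1.24. Since the members were proposed with this contrast in view, nothing is read from these counts. Igll1 was the 67th lowest of the 11985 differences, Dntt the 123rd and Rag2 the 571st.

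The counting interval of the ratio lay below 1 for all 10 members. Among genes that passed the filter, which leaves out Rag1, it did so for 9 of 9 members and for 27.1% of the 11985 genes. Among the 45 pairs of members the intervals of the ratios did not overlap in 3, namely Igll1 with Dntt, with Cd79a and with Cd79b. For the other 42 pairs the depth did not separate the ratios. Among protein-coding genes outside all lists that averaged 5 FPKM or more, predicted genes and clone names left out, the 3 whose difference lay nearest to the members' median, over 2 libraries only, were H2-Oa, a class II antigen presentation gene of B cells (11.3 and 4.38 FPKM), Bfsp2, known as a lens filament gene (7.63 and 2.80 FPKM), and B2m, the light chain of class I molecules (3244 and 1421 FPKM).

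Of the members, 6 sit in adjacent pairs in the mouse genome by the order of protein-coding genes in RefSeq: Rag2 beside Rag1 on chromosome 2, Igll1 beside Vpreb1 on chromosome 16, and Blnk beside Dntt on chromosome 19. The nearest gene on each side that reached a mean of 1 FPKM, taken for every pair or single member, gave 14 neighbours, of which 1 was at least 1.5-fold lower, 2 were at least 1.5-fold higher and 11 lay between. With equal FPKM sums, an alternative added after seeing the data, 0 were lower and 4 higher. Beside Rag2 and Rag1, Iftap had 12.1 and 10.3 FPKM and the signalling ligase gene Traf6 6.75 and 7.08 FPKM. Beside Vpreb1, the topoisomerase gene Top3b had 30.7 and 29.1 FPKM. These 3 flanking genes were thus close to equal in the 2 libraries. On the other side of that pair Fgd4 had 2.41 and 4.09 FPKM, a ratio of 1.70 (1.47 to 1.96), although its difference on the log2(FPKM + 1) scale stayed within 1.5-fold. Around Blnk and Dntt the neighbours were higher in the KO-labelled library, Zfp518a at 4 and 7.39 FPKM and Tm9sf3 at 26.1 and 47.7 FPKM. Both transcripts are over 5000 bases, a length at which the median difference of all genes tested was 0.25. After the length centring described below, Tm9sf3 was at 0.65 and Zfp518a at 0.48, within 1.5-fold. The single lower neighbour was Capsl beside Il7r, with 3.31 and 1.63 FPKM from 46 and 21 reads. The median difference of the 14 was 0.06.

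**Figure D2:**
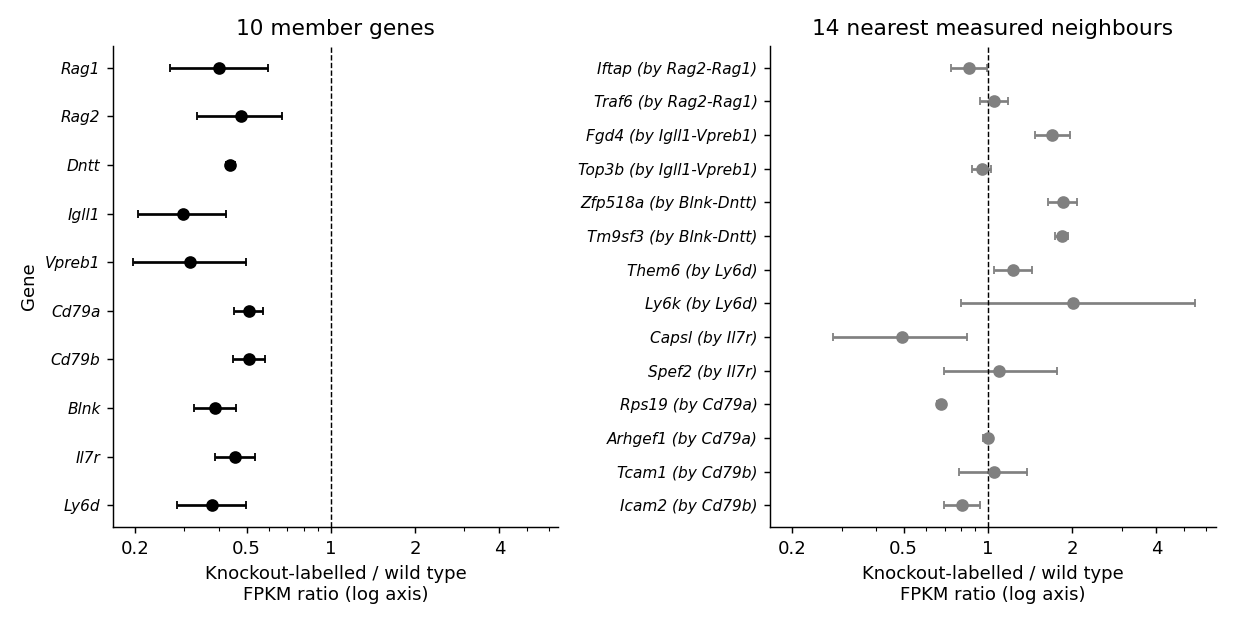
Ratio of FPKM, KO-labelled over WT (log axis), for the 10 members (left) and for the nearest measured protein-coding gene on each side of them (right), with 95% counting intervals from estimated reads and a dashed line at 1. All 10 members lie left of the line, from 0.296 to 0.510, while the 14 neighbours stand on both sides of it.

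Differences between these libraries varied with transcript length, which also differs among the members. Over all genes tested the median was −0.30 in transcripts shorter than 1000 bases, −0.14 from 1000 to 2000 bases, 0.05 from 2000 to 5000 bases and 0.25 over 5000 bases. Igll1, Vpreb1 and Ly6d fall in the shortest class, in which 24.2% of all genes were at least 1.5-fold lower, and Cd79a and Cd79b in the next, with 8.90%. Dntt, Blnk, Il7r and Rag2 lie in the class from 2000 to 5000 bases, where 2.92% were. After subtraction of the median over the 200 genes most similar in length, 9 of 9 members were still at least 1.5-fold lower, beside 4.41% of all genes, with a median of −1.06. Igll1 was then at −1.23, Blnk at −1.19, Dntt at −1.14, Vpreb1 at −1.07 and Il7r at −1.06. Ly6d was at −0.97, Cd79a at −0.79, Cd79b at −0.77 and Rag2 at −0.70. Blnk and Dntt thus stood below Vpreb1 on that scale. Rag1, the longest member at 6669 bases, was at −0.79 on that scale against −0.50 without it.

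**Figure D3:**
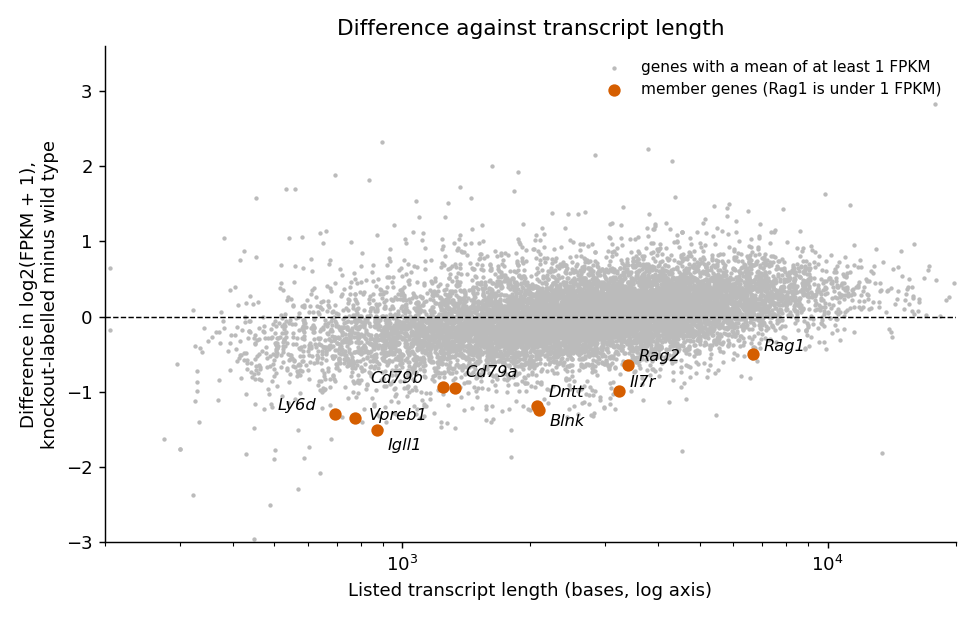
Difference in log2(FPKM + 1), KO-labelled minus WT, against listed transcript length in bases (log axis), for genes whose mean reached 1 FPKM (grey; 184 genes lie outside the axes) and the 10 members (orange). Grey points drift upward with length, and the members lie below 0 at every length from Ly6d to Rag1.

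Of 57 other genes of the same pathways, 49 lay within 1.5-fold, 8 were lower by at least that and 0 were higher, beside 6.13% and 6.11% of all genes. With equal FPKM sums, counted after seeing the data, 4 were lower and 4 higher, and with length centring 6 were lower and 1 higher. With equal FPKM sums the 4 pathway medians below moved with the median of all genes, to between 0.15 and 0.28, and with the length centring above they lay between −0.14 and −0.03. Of 13 genes for end joining and other helpers of V(D)J recombination, 1 was 1.5-fold or more lower and 0 higher, and the median difference was 0.04. That gene was Paxx, a small end-joining factor (24.0 and 14.8 FPKM), and the count was 0 with equal FPKM sums, with length centring (Paxx at −0.45) and with a pseudocount of 5 FPKM. The Ku subunits Xrcc5 (19.5 and 14.4 FPKM) and Xrcc6 (64.8 and 50.7 FPKM) and the damage kinase Atm (7.06 and 8.86 FPKM) came next in size. The joining machinery, which all cells use, was thus mostly within 1.5-fold.

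Of 15 kinases, lipases and adaptors of pre-B and B receptor signalling, 2 were 1.5-fold or more lower and 0 higher; the list's median difference was −0.02. Among the lower ones was the B lineage kinase Blk (2.81 and 1.44 FPKM). Bank1 (2.72 and 1.64 FPKM) and the protein kinase C gene Prkcb (4.10 and 6.34 FPKM) followed in size. Syk and Plcg2, between which Blnk acts, were chosen after their values were seen and had 52.1 and 53.9 FPKM and 93.1 and 92.9 FPKM. Blnk was thus 0.296 times Syk in the WT and 0.111 times in the KO-labelled library.

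Of 12 receptor chains and signalling genes of interleukin 7, TSLP and FLT3, 2 were 1.5-fold or more lower and 0 higher; the list's median difference was 0.09. Flt3, the receptor kinase of lymphoid-primed progenitors, stood at 155 and 82.5 FPKM, a ratio of 0.533 (0.514 to 0.553), and Cish, a feedback inhibitor induced by STAT5, at 4.48 and 2.65 FPKM. The survival kinase gene Pim1 (75.6 and 106 FPKM) and Il2rg (76.9 and 54.6 FPKM) were next. Dntt was 2.20 times Flt3 in the WT and 1.81 times in the KO-labelled library, and their intervals of the ratio do not overlap.

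Of 17 transcription factors of B lineage specification, 3 were 1.5-fold or more lower and 0 higher; the list's median difference was −0.01. These were Spib (4.72 and 1.92 FPKM), an ETS factor of B cells and plasmacytoid dendritic cells, Ebf1 (2.12 and 0.79 FPKM), the factor that opens the B cell programme, and Pax5 (1.79 and 0.84 FPKM, from 32 and 14 reads), which commits cells to it. Ebf1 and Pax5, which act upstream of Igll1, Vpreb1 and Cd79a in B cell precursors, were thus among the lower genes at low levels. More abundant factors of the same list were not lower. Tcf3, an E protein gene, had 32.1 and 33.6 FPKM and Ikzf1, which encodes Ikaros, 59.3 and 69.3 FPKM. Spi1, which encodes PU.1, had 106 and 130 FPKM. These 3 were chosen after their values were seen, and 9 of the 17 differences lay below 0. The part of any factor in the members' levels was not tested. Pax5 was at −0.41 after length centring, and the list's count of lower genes was 0 with a pseudocount of 5 FPKM and 0 of 8 among genes averaging 5 FPKM or more. Myb, a factor of many progenitors, had 141 and 202 FPKM.

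Markers of other cells also differed between the libraries, and their part in the members' lower levels was not tested. Summed levels take every gene of a list that was used, and counts only those that passed the filter. Beside these counts, 6.13% of all 11985 genes tested were at least 1.5-fold lower and 6.11% at least 1.5-fold higher. No marker named in these lists and used here was at 0 in either library. Of 10 other lymphoid-primed progenitor genes, 4 were 1.5-fold or more lower (Flt3, Ccr9, Ccr7 and Ltb) and 0 higher; the list's median difference was −0.56, with summed levels of 984 and 731 FPKM. Among the most abundant were Cd52 (242 and 201 FPKM) and Lsp1 (172 and 118 FPKM). Both were less than 1.5-fold apart.

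Of 12 B cell surface and receptor genes that passed the filter, 5 were 1.5-fold or more lower (among them Cd37, Cd72, Vpreb3 and Blk) and 0 higher; the list's median difference was −0.51, with summed levels of 353 and 294 FPKM. Vpreb3, a pre-B receptor chaperone chosen after its value was seen, had 4.39 and 0.62 FPKM from 38 and 5 reads. The most abundant were Cd24a (208 and 212 FPKM), Cd37 (61.0 and 39.3 FPKM) and Cd72 (53.8 and 26.2 FPKM).

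Of 13 plasmacytoid dendritic cell genes that passed, from 15, 8 were 1.5-fold or more lower and 0 higher. With a pseudocount of 5 FPKM 2 were lower, beside 2.69% of all genes. The list's median difference was −0.73, with summed levels of 516 and 438 FPKM. Plasmacytoid dendritic cells, which sense viral nucleic acids, can carry Rag and Dntt transcripts and Ly6d of their own. Of the list's genes, Spib and Ccr9 stand in other lists here too, as does Irf8. The most abundant were Ly6c2 (283 and 269 FPKM), Irf8 (65.5 and 53.5 FPKM) and Bst2 (60.5 and 39.97 FPKM). Siglech, a defining receptor of these cells chosen after its value was seen, stood at 6.37 and 2.79 FPKM, a ratio of 0.438 (0.342 to 0.556).

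Of 14 T cell genes that passed, from 16, 5 were 1.5-fold or more lower and 0 higher; the list's median difference was −0.14, with summed levels of 111 and 86.3 FPKM, and Lat (30.8 and 18.8 FPKM), Lck (17.6 and 11.2 FPKM) and Thy1 (14.4 and 16.8 FPKM) were the most abundant. Of 7 natural killer and innate lymphoid genes that passed, from 12, 0 were 1.5-fold apart, with a median of −0.13 (0.04 with length centring) and summed levels of 84.4 and 65.0 FPKM. Nkg7 (54.0 and 41.2 FPKM), Id2 (13.7 and 10.1 FPKM) and Il2rb (3.37 and 3.66 FPKM) led that list. Without the filter 2 of its 12 genes were at least 1.5-fold lower, Gzma (0.93 and 0.17 FPKM, from 12 and 2 reads) and Klre1 (1.25 and 0.32 FPKM, from 17 and 4 reads), both chosen after their values were seen.

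Of 15 neutrophil granule genes, 10 were at least 1.5-fold higher in the KO-labelled library, beside 6.11% of all genes, and 0 lower, with a median of 0.67 and summed levels of 8672 and 12092 FPKM. S100a9 (2623 and 3069 FPKM), Mpo (1842 and 2793 FPKM) and Ctsg (895 and 1832 FPKM) were the most abundant. Dntt was 0.185 times Mpo in the WT and 0.0535 times in the KO-labelled library. Of 11 erythroid genes 5 were lower and 1 higher by 1.5-fold or more; the list's median difference was −0.49, with summed levels of 1545 and 561 FPKM, led by Hba-a1 (764 and 155 FPKM), Hbb-bs (457 and 107 FPKM) and Car2 (158 and 112 FPKM). Of 15 long-term stem cell genes 3 were lower and 1 higher by 1.5-fold or more; the list's median difference was −0.11 (0.03 with equal FPKM sums), with summed levels of 300.0 and 223 FPKM, and Kit, Meis1 (58.4 and 44.6 FPKM) and Ly6a were the most abundant. Against Kit, a gene of the gate that was nearly equal, Dntt was 5.71 times as high in the WT and 2.64 times in the KO-labelled library. The shift depends on the gene chosen. Ly6a and Cd48 had ratios of 0.578 and 0.836, so Dntt fell less against them. Slamf1 had a ratio of 1.59, so Dntt fell more against it.

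**Figure D4:**
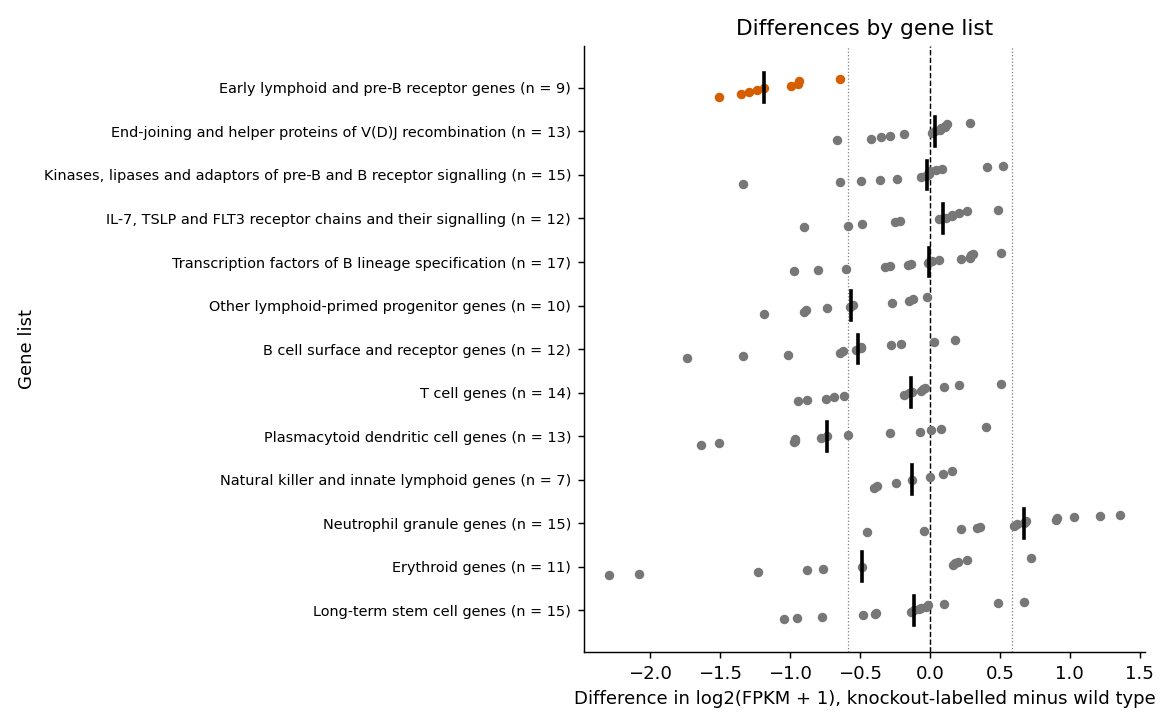
Difference in log2(FPKM + 1), KO-labelled minus WT, for each gene whose mean reached 1 FPKM in the member list (orange) and 12 other lists (grey), 1 point per gene, with a black bar at each list's median, a dashed line at 0 and dotted lines at 1.5-fold. All 9 orange points lie left of the lower dotted line, the 4 pathway lists centre near 0 and the neutrophil list lies to the right.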

How the data were processed

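The authors deposited FPKM values per gene for each library, with an Entrez gene identifier, RefSeq transcripts and a transcript length, per the file headers. The submitters' processing notes name HISAT, HISAT2, RSEM and the build mm9, without versions, roles or settings. A gene absent from a library was taken as 0. Symbols came from RefSeq on GRCm38.p6 (17169 of 17216 identifiers matched), used for names, gene order and promoter windows only. The members, lists and rules were chosen with earlier results of these data known.

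Reads were estimated from steps between low FPKM values of 1-transcript genes of 200 to 1200 bases: 86.2% of 500 and 89.1% of 470 values lay within 0.15 of a whole read, at steps and length offsets chosen on these same values. Levels have exact Poisson intervals and ratios exact conditional (Clopper-Pearson) intervals at 95%. Differences used a pseudocount of 1 FPKM, genes averaging 1 FPKM or more and a fold of 1.5, with no test. Named were all members, Agbl3, the gate's genes, up to 4 genes of each pathway list by absolute difference, up to 3 of each marker list by abundance, every gene in a small count, and 3 genes nearest to the members' median; some genes that these rules name are not reported here. Of 15 B cell genes 13 were used, and 12 passed the filter. Alternatives were the pseudocount, the filter, the scaling, the fold, the counting interval and length centring. The scripts were tested on simulated data. Tools were Python 3.11.15 with scipy 1.17.1, numpy 2.4.6, matplotlib 3.10.9 and pandas 2.3.3.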

Additional observations from a re-analysis of the deposited data

How the results depend on the processing

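The lower level of all 10 members held its direction under every scaling, pseudocount and length alternative run (50 values for single members, of which 0 reversed and 13 moved beyond the counting interval). The count of members at least 1.5-fold lower was 9 of 9, beside 6.13% of all genes. It was 8 of 9 with a pseudocount of 5 FPKM (2.69% of all genes) or equal FPKM sums (3.2%). Over members averaging 5 FPKM or more it was 8 of 8 (4.88%), and without a filter 9 of 10 (5.04%). At a fold of 2 the count was 5 of 9 members (1.55%). Their median difference of −1.19 became −0.84 with a pseudocount of 5 FPKM and −1.24 with equal upper quartiles. Equal FPKM sums moved the median of all genes to 0.18 and that of the members to −0.997, and changed the split of all genes from 735 lower and 732 higher to 384 and 1459; with equal upper quartiles it was 893 and 576. Among the 14 neighbours, the counts lower and higher were 1 and 2, 2 and 2 with equal upper quartiles and 0 and 2 with length centring. The 2 higher neighbours were Zfp518a and Tm9sf3 without length centring. With it they were Tm9sf3 and Ly6k, the latter from 8 and 15 reads. The median of the stem cell list was −0.11 and became 0.03 with equal sums, and that of the natural killer list was −0.13 and became 0.04 with length centring. Of 168 list counts under alternatives, 38 changed by more than 1.5 times or went to or from 0, most of them counts of 5 or fewer. The plasmacytoid dendritic cell count fell from 8 to 2 with a pseudocount of 5 FPKM and the T cell count from 5 to 2 with length centring. The B cell count rose from 5 to 8 with a pseudocount of 0.1 FPKM. No paired analysis was possible because there is 1 library per genotype, and for the same reason none could be left out. Depth limits Vpreb1, Rag1 and Igll1 most, with 26, 36 and 41 reads in the knockout-labelled library.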
